A study of Mus musculus with 19 samples.

Results

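The transcripts described here are 359 moderately bound RNAs whose share of FMRP tags was lower 30 min after optogenetic activation of hippocampal neurons, out of 49932 transcripts that had at least 1 tag in the study. They were chosen by measured values. A transcript had to have at least 100 and under 800 tags summed over the 16 opto and control libraries and under 10 tags in the noCre libraries. Its share of the library's tags had to be lower in opto than in control in all 4 same-numbered 30 min pairs, with a mean opto share of at most 2/3 of the mean control share. A run of consecutive Ensembl IDs and 3 single transcripts were left out by ID, and 3 of the transcripts left out met the rest of the rule. The limits on tags alone left a pool of 3707 transcripts, so the members were 9.68% of the pool. The 30 min values are therefore a description of what was chosen, and the 5 min libraries, which played no part in the direction, carry the test.

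FMRP, the product of the Fmr1 gene and the protein lost in fragile X syndrome, binds messenger RNAs and is known as a repressor of their translation. In neurons much of it travels with polyribosomes, and its bound RNAs are rich in long messages for synaptic and signalling proteins. Neuronal activity is known to change the phosphorylation and the turnover of FMRP and the translation of RNAs bound to it. CLIP fixes a protein to its bound RNA with ultraviolet light, purifies it and sequences the attached RNA fragments, called tags.

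All opto and control libraries came from CA1 tissue of acute hippocampal slices of Camk2a-Cre x Fmr1 cTag mice, in which Cre recombinase under the Camk2a promoter switches on a tag on FMRP, so that the purification draws on Camk2a-Cre+ cells. The tissue was dissected and lysed with cycloheximide, which arrests translating ribosomes, and the tags were cloned by BrdU-CLIP. Opto tissue carried AAV-ChR2, a viral vector for the light-gated channel channelrhodopsin-2, and control tissue carried AAV-Control, and both were taken 5 or 30 min after activation, with 4 libraries in each of the 4 groups. The 3 noCre libraries measure background, although their other labels give the Cre-positive cell type and genotype. The age and the number of animals behind a library are not given in the sources used here, and p-values measure the spread between libraries, which may be technical. The 5 min files are marked as new in the labels, so time and deposit cannot be told apart where the times are set side by side.

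Depth differed between the libraries and is needed to read the values. The opto libraries at 30 min held 20456, 29396, 121972 and 41721 tags in replicates 1 to 4, against 81588 to 192471 in their controls, 84614 to 256727 in opto at 5 min and 40173 to 341445 in the 5 min controls. The noCre libraries held 887, 34 and 5557 tags. The files pair no transcript with a gene and the gene table used here matched 0 of the IDs, so members are given by ID or by rank and no tissue marker could be checked. A share can fall because fewer copies are bound, because there is less of the RNA or because other RNAs take more of the tags. Tags alone cannot tell these apart.

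At 30 min the 359 members together took 1.55%, 1.46%, 2.10% and 1.58% of the tags in opto replicates 1 to 4. In the controls they took 4.39%, 3.82%, 3.19% and 3.30%. In all members opto was lower in 4 of 4 pairs, which the rule demands (background 12% of the 4072 transcripts tested). Opto replicate 3, the deepest of its group, was the highest opto library, and it lay below the lowest control. The group means were 1.67% ± 0.291 and 3.68% ± 0.550 (SD, n = 4 each), a ratio of 0.455, while the pool of the same tag limits had a ratio of 0.968. The ratio in the 4 pairs was 0.353, 0.382, 0.658 and 0.478. These values follow from the choice of the members and carry no test.

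Among the members the 30 min ratio of mean shares ran from 0.0316 to 0.666, with a median of 0.443 and quartiles of 0.347 and 0.556. It was at most 1/2 in 224 members, at most 1/3 in 86 and at most 1/4 in 46. Just inside the limit of 2/3 lay transcripts with ratios of 0.664 and 0.666, and just outside it lay others, also lower in all 4 pairs, with 0.668 and 0.670. In all, 443 transcripts of the pool were lower in 4 of 4 pairs, and 84 of them missed the fold limit. In the pool, 211 were higher in 4 of 4 pairs. A count of 0 in opto makes a pair lower wherever its control has a tag. This concerned 238 members, which had 0 tags in at least 1 opto library at 30 min. Whether depth had a part in the difference between 443 and 211 was not tested. The lowest opto values rest on few tags. The median member had 9 tags in the 4 opto libraries together and 46 in the 4 controls. In opto replicates 1, 2 and 4 the median member had 1 tag, and 150, 142 and 61 members had none. In replicate 3 the median was 6 tags and 1 member had none. A count of 0 allows up to 147, 102, 24.6 and 71.9 CPM (tags per 1000000 tags of the library) in opto replicates 1 to 4, taking 3 tags as the limit, and covers counting error only.

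All members passed the filter of the test, which asks for at least 100 tags over the 16 libraries and does not look at groups. In the fit of all 4072 transcripts with edgeR's quasi-likelihood test, 0 members passed an adjusted p of 0.05 at 30 min (0.0246% of all transcripts passed in either direction). The smallest adjusted p of a member in this edgeR fit was 0.301. The DESeq2 test also called 0 members, and 1 of all 4072 transcripts. It had 101 members lower at an unadjusted p under 0.05 (28.1%, against 3.66% of all transcripts in that test). At an unadjusted p under 0.05, 145 members were lower in edgeR, where the background was 5.38% of all transcripts, and in 123 members every opto library lay below every control, where the background was 3.59%. The rule used this contrast, so nothing is read from either count. The median log2 fold change of the members was -0.98, against -0.05 over all 4072 transcripts.

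**Figure D1:**
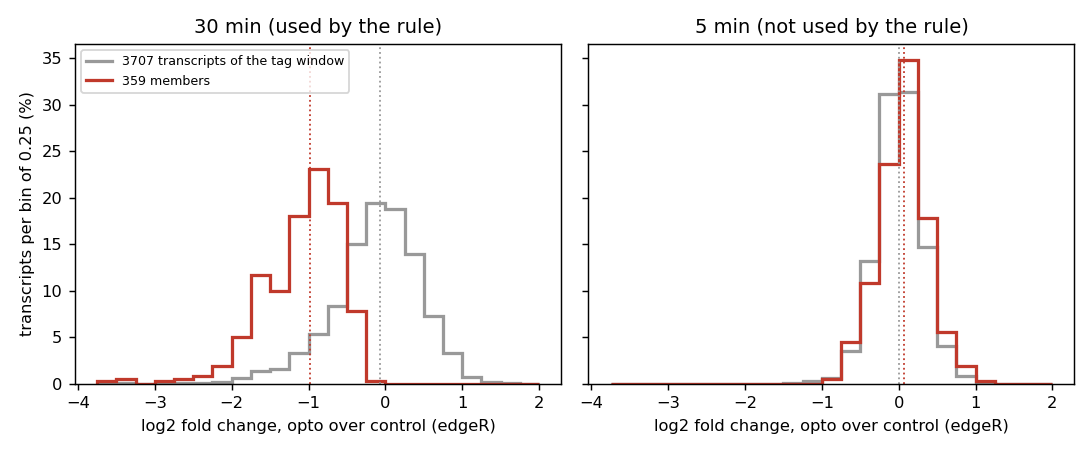
Distribution of the edgeR log2 fold change, opto over control, at 30 min (left) and 5 min (right), in percent of transcripts per bin of 0.25, for the 359 members (red) and the 3707 transcripts of the same tag limits (grey), with dotted lines at the medians. The members lie to the left at 30 min, as the rule requires, and lie over the pool at 5 min, with medians of 0.07 and 0.01.

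The 2 members with the most tags were ENSMUST00000032891, with 769 tags over the 16 libraries, and ENSMUST00000164930, with 759. ENSMUST00000032891 had 97.8, 374, 271 and 192 CPM in the 30 min opto libraries, on 2, 11, 33 and 8 tags. It had 380, 400, 340 and 425 CPM in their controls, so that opto replicate 2 reached into the control range. ENSMUST00000164930 had 0, 238, 197 and 120 CPM in opto, on 0, 7, 24 and 5 tags. Its controls had 404, 260, 207 and 259 CPM, and opto replicate 2 again lay above the lowest control. Both were lower within each pair without the groups being apart. The 10 members with the most tags had 594 to 769 tags and 30 min ratios of 0.366 to 0.605. In 2 of them every opto library lay below every control, against 34.3% of all members and 3.59% of all 4072 transcripts. The rule used this contrast, so the count is a description.

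The steepest falls were in members with fewer tags. Among members with at least 200 tags, the lowest 6 ratios at 30 min were 0.150 to 0.257, each on 8 or 9 tags in the 4 opto libraries against 71 to 86 in the controls. These ratios belong to 8 members, of which 3 share nearly the same counts and another 3 share identical ones, so that they stand for 4 separate sets of counts. The 8 members had 5 min ratios of 1.14 to 1.78. By tags, the summed 30 min ratio was 0.405 over the 232 members with under 200 tags, 0.496 over the 97 with 200 to under 400 and 0.490 over the 30 with 400 or more. The matching 5 min ratios were 1.03, 1.12 and 1.08. In each tag class the 5 min ratio was above 1.

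How much of the 30 min fall is carried by a pair that did not choose the direction was read by applying the rule to 3 pairs and measuring the pair left out. The limits on tags still used all 16 libraries, so the pair left out was not wholly outside the choice. Without pair 1 the rule gave 484 transcripts, whose summed ratio was 0.472 in the choosing pairs and 0.746 in pair 1, where the pool had 0.908. Without pair 2 it gave 555, with 0.467 in the choosing pairs and 0.828 in pair 2, where the pool had 0.983. Without pair 4 it gave 528, with 0.448 and 0.789, against 0.961 for the pool. Without pair 3, the pair with the deepest opto library, it gave 661, with 0.421 in the choosing pairs and 0.985 in pair 3, where the pool had 1.02. In each pair left out the chosen transcripts were thus below the pool, and much nearer to it than in the pairs that chose them. The chosen sets were wider than the members, and 319, 329, 341 and 334 of them were members without pairs 1 to 4. In every pair the opto library held fewer tags than its control, with 121972 against 135474 in pair 3. Depth was not tested in these values.

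**Figure D2:**
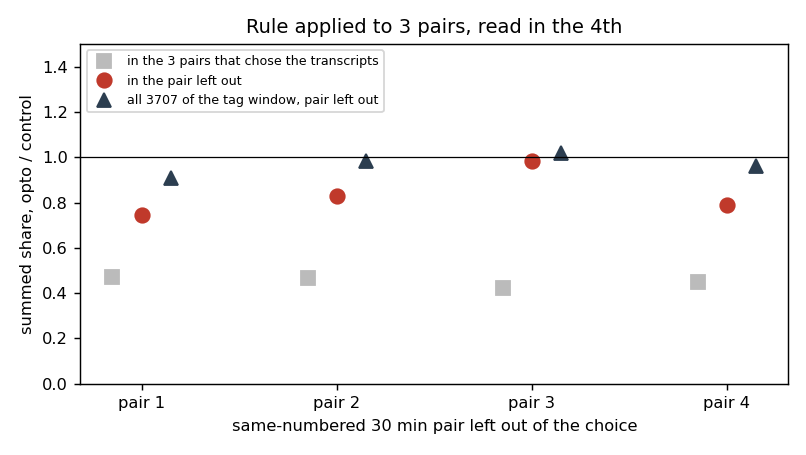
Summed share of tags in opto over control at 30 min for transcripts chosen by the rule on 3 same-numbered pairs, in those 3 pairs (grey squares), in the pair left out (red circles) and for all 3707 transcripts of the tag limits in the pair left out (dark triangles). The ratios of 0.421 to 0.472 in the choosing pairs stand against 0.746, 0.828, 0.985 and 0.789 in pairs 1 to 4 when left out.

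Counted by transcript, the pair left out was lower in opto for 69.0%, 61.6%, 54.9% and 65.3% of the transcripts chosen as lower, in pairs 1 to 4. In the pool 60.9%, 56.1%, 50.1% and 56.1% were lower in the same pairs. The median log2 ratio of the chosen transcripts in the pair left out was -0.70, -0.46, -0.11 and -0.47, against -0.33, -0.20, -0.00054 and -0.15 in the pool. These are values of single pairs of libraries, with no test.

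The test of the members is the 5 min contrast, and the fall was not seen there. At 5 min the 359 members together took 4.07%, 3.21%, 4.08% and 3.06% of the tags in opto replicates 1 to 4. In the controls they took 4.03%, 2.51%, 3.68% and 3.23%. The groups overlapped over most of their range, with means of 3.60% ± 0.547 in opto and 3.36% ± 0.656 in control (SD, n = 4 each). The ratio of means was 1.07, with pair ratios of 1.01, 1.28, 1.11 and 0.947, and 1 of 4 pairs had the lower share in opto. Without control 5 min replicate 2, the shallowest library of its group, the ratio was 0.988. The pool had a ratio of 0.998.

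**Figure D3:**
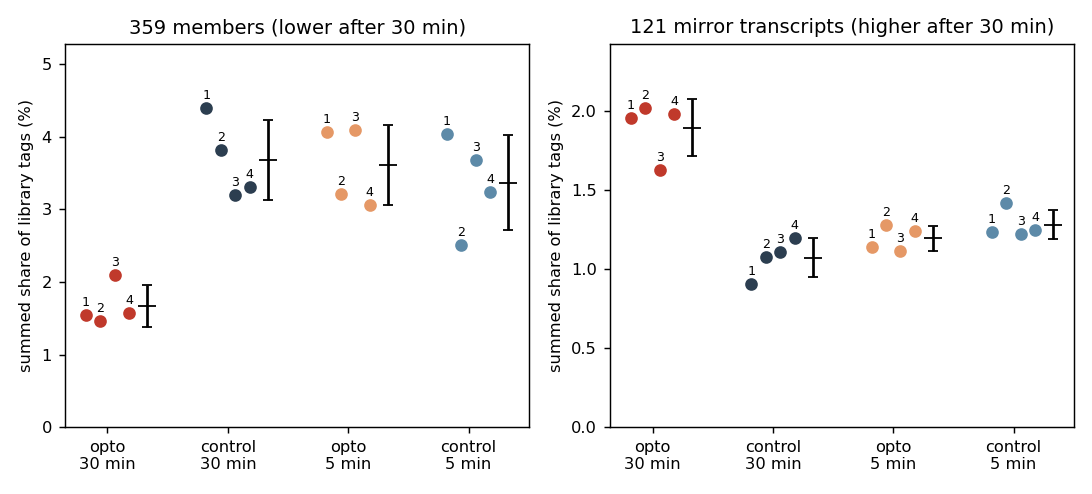
Summed share of library tags, in percent, taken by the 359 members (left) and by the 121 transcripts chosen by the same rule in the opposite direction (right), with a point for each library marked by its replicate number, and the mean and SD (n = 4) of each group in black. The opto libraries at 30 min, which the rule used, hold 1.46% to 2.10% on the left, and the other groups span 2.51% to 4.39%.

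At 5 min 0 members passed an adjusted p of 0.05 in edgeR's test, and the background was 0% of the 4072 transcripts. At an unadjusted p under 0.05 in edgeR, 2 members were lower in opto, 0.557% of the members against a background of 0.86%, and 6 were higher, 1.67% against a background of 1.03%. The lower members, ENSMUST00000120005 and ENSMUST00000118564, had the same opto mean of 44.3 CPM and control means of 91.0 and 90.3 CPM. Among the higher members, ENSMUST00000109399 and ENSMUST00000109401 had the same mean in every group. These members may therefore share tags and are not separate findings. The DESeq2 test also called 0 members, and 0 of all 4072 transcripts. It had 2 lower (0.557%, against 0.540% of all transcripts) and 4 higher (1.11%, against 0.565%) at an unadjusted p under 0.05. The edgeR counts moved with single libraries. Without opto 5 min replicate 2 there were 8 lower (2.23%, against 0.810% of all transcripts) and 11 higher (3.06%, against 0.933%). Without control 5 min replicate 1 there were 2 lower (0.557%, against 1.25%) and 15 higher (4.18%, against 1.69%). The median log2 fold change of the members was 0.07 (quartiles -0.14 and 0.26), against 0.01 in the pool and 0.00373 over all transcripts. A log2 fold change under 0 was found in 142 members (39.6%), where the background was 49.6%.

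At 5 min, library by library, opto was lower in 4 of 4 pairs in 24 members (6.69%), against a background of 7.17%, and higher in 4 of 4 in 24 members (6.69%), against a background of 6.48%. Every opto library lay below every control in 3 members (0.836%, background 1.4%) and above every control in 4 (1.11%, background 0.786%). The 5 min ratio of mean shares was at most 2/3 in 18 members (5.01%), against 5.37% of the pool, and at least 3/2 in 29 members (8.08%), against 6.37% of the pool. A missed threshold does not show that nothing changed. The median SE of a member's log2 fold change at 5 min was 0.35, and for 158 members (44.0%, against 42.8% of all transcripts) the 95% interval lay above -0.58, the rule's limit of 2/3 on the log2 scale. For the other members the interval did not exclude a fall of that size.

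ENSMUST00000032891 had 390, 254, 304 and 437 CPM in the 5 min opto libraries and 369, 299, 312 and 436 CPM in the controls. The log2 fold change was -0.06 (SE 0.22, 95% interval -0.50 to 0.38, edgeR adjusted p = 1.00), so that its interval did not hold the limit of the rule. ENSMUST00000164930 had 440, 377, 530 and 260 CPM in opto and 422, 274, 642 and 311 CPM in control. Its log2 fold change was -0.0040 (SE 0.26, 95% interval -0.54 to 0.53, edgeR adjusted p = 1.00). In both transcripts the groups overlapped and 2 of 4 pairs were lower in opto. The sign of these changes near 0 turned in some alternatives and is not a direction.

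The member with the smallest p toward lower values at 5 min was ENSMUST00000120005, with 136 tags over the 16 libraries. It had 42.8, 40.7, 46.3 and 47.3 CPM in opto, on 11, 4, 9 and 4 tags. The controls had 76.1, 99.6, 73.4 and 115 CPM, on 26, 4, 8 and 24 tags, and every opto library lay below every control. The log2 fold change was -0.99 (SE 0.35, edgeR unadjusted p = 0.00756, adjusted p = 1.00), lower in 4 of 4 pairs, and it did not pass. Its 30 min values were 36.7 ± 29.5 CPM with ChR2 and 61.2 ± 13.2 CPM without (SD, n = 4 each).

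The member with the smallest p toward higher values at 5 min was ENSMUST00000185789, which thus went the other way from its 30 min values. It had 113, 193, 56.6 and 343 CPM in opto at 5 min, on 29, 19, 11 and 29 tags, and 61.5, 49.8, 36.7 and 105 CPM in control. Opto was higher in 4 of 4 pairs, although opto replicate 3 lay below the control values of replicates 1 and 4. The log2 fold change was 1.16 (SE 0.42, edgeR unadjusted p = 0.00935, adjusted p = 1.00), and it did not pass. Without opto 5 min replicate 4, its highest library, the log2 fold change was 0.69. At 30 min it had 342, 136, 73.8 and 192 CPM in opto against 404, 239, 280 and 348 in control. Its opto mean was thus near the same at both times, 176 CPM at 5 min and 186 at 30 min. Its control mean was 63.3 CPM at 5 min and 318 at 30 min, so the turn in direction lay mainly in the controls. Time and deposit cannot be told apart there, and the cause was not tested.

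**Figure D4:**
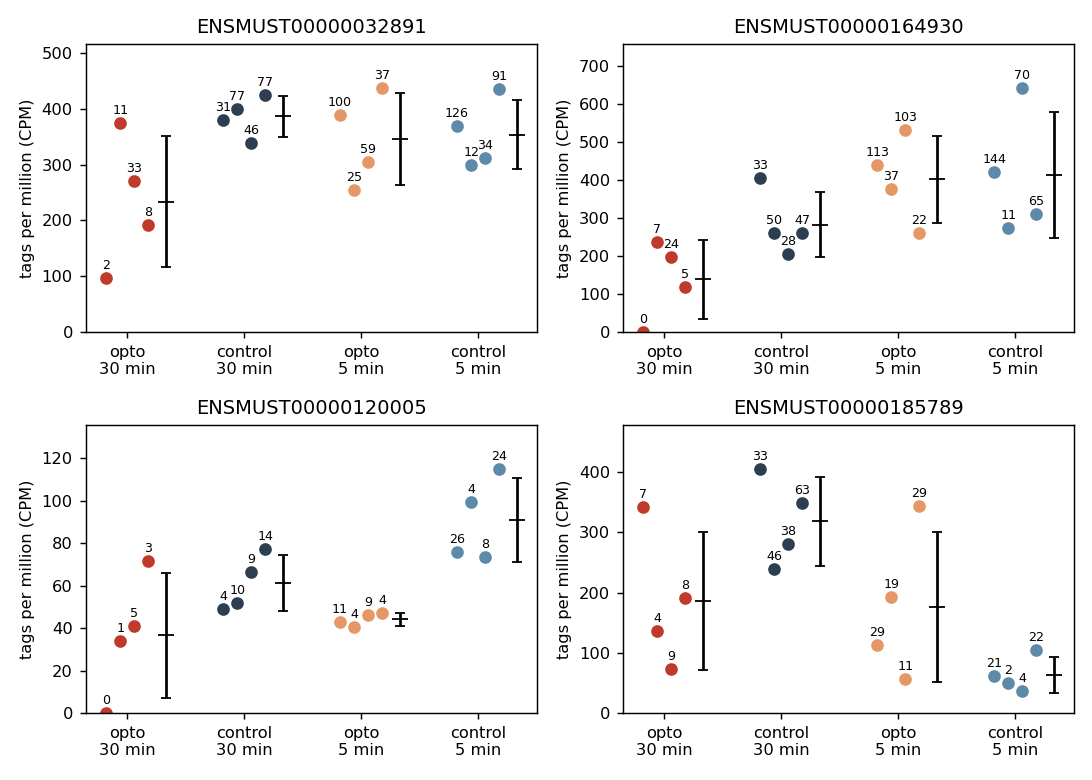
CPM in each Cre-positive library for the 2 members with the most tags (top) and the members with the smallest p toward lower and higher values at 5 min (bottom), with the number of tags written at each point and the mean and SD (n = 4) of each group in black. At 30 min opto points stand on 0 to 33 tags, and at 5 min the groups of both top transcripts overlap.

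Within the 5 min groups the level of the members differed with library depth. In the 5 min controls their summed share was lowest in the shallowest library, replicate 2 (2.51% at 40173 tags), and highest in the deepest, replicate 1 (4.03% at 341445 tags), but replicate 4 had 3.23% at 208890 tags and replicate 3 had 3.68% at 108993. In the 5 min opto libraries it was 3.06% and 3.21% in the shallower replicates 4 and 2 (84614 and 98257 tags) and 4.08% and 4.07% in the deeper replicates 3 and 1 (194181 and 256727 tags). Control 5 min replicate 2 was below the mean of the other 3 controls in 259 members (72.1%), against 58.9% of the pool. Opto 5 min replicates 2 and 4 were on average below replicates 1 and 3 in 274 members (76.3%), against 57.4% of the pool. The 30 min controls did not follow this order, since their shallowest library, replicate 1 (81588 tags), had the highest share, 4.39%. In the 30 min opto libraries the deepest, replicate 3 (121972 tags), had the highest share, 2.10%. Replicates 1, 2 and 4 (20456, 29396 and 41721 tags) had 1.55%, 1.46% and 1.58%. Both 30 min groups entered the choice of the members, so their order is a description.

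Libraries of like depth can be set side by side across the groups. Opto 30 min replicate 4 (41721 tags) had 1.58%, and control 5 min replicate 2 (40173 tags) had 2.51%. Opto 30 min replicate 3 (121972 tags) had 2.10%, and control 30 min replicate 3 (135474 tags) had 3.19%. The rule made every member lower in opto in that 30 min pair, and it used all opto libraries at 30 min. Both comparisons are therefore descriptions of the choice, and the first also crosses time and deposit. With pair 3 left out of the choice, the chosen transcripts had a summed ratio of 0.985 there, against 1.02 in the pool. When the fit took each library's depth into account, a setting added with the results in view, the median log2 fold change of the members was -0.87 at 30 min and 0.12 at 5 min, and at 30 min 89 members had an unadjusted p under 0.05 in edgeR, against 145, and the background was 3.76% against 5.38%. The 30 min values of this fit come from the libraries that chose the members, so they too are descriptions of the choice. Depth was not tested as a part of the 30 min values.

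**Figure D5:**
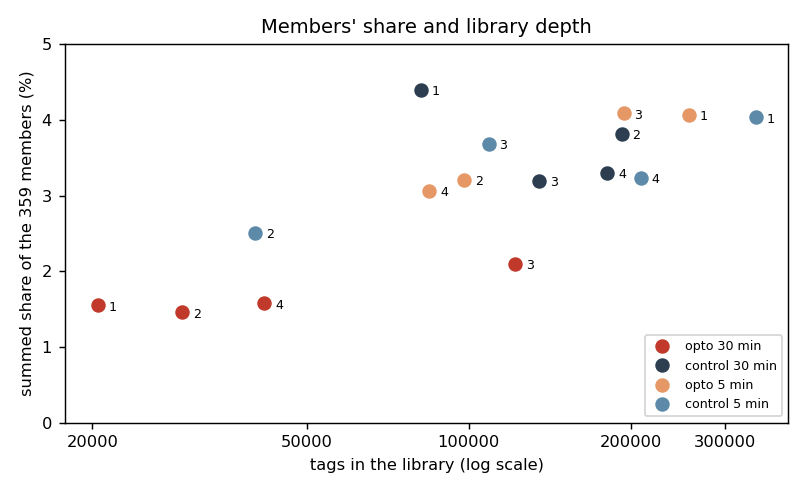
Summed share of the 359 members in percent against the number of tags in the library (log scale), with a point for each of the 16 opto and control libraries marked by its replicate number. The opto libraries at 30 min, which the rule used, lie lowest, at 1.46% to 2.10%. Of these, 3 are shallower than or close to control 5 min replicate 2, which has 2.51% at 40173 tags.

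Across the times, members were near each other in 3 of the 4 groups. The median member had 35.5 CPM in opto at 30 min, 82.3 in control at 30 min, 79.7 in opto at 5 min and 77.0 in control at 5 min, where the pool had 78.9, 82.2, 85.6 and 84.8 CPM. The mean share in opto was higher at 5 min than at 30 min in 356 of 359 members (99.2%, against 58.9% of the pool), and in control it was higher at 5 min in 135 (37.6%, against 53.7% of the pool). Both 30 min groups entered the choice of the members, so these counts are descriptions.

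The rule set limits on the tags over the 16 libraries and in noCre, and within these limits members lay as follows. Members had a median of 166 tags over the 16 libraries, against 181 in the pool, and 232 of them had under 200 tags. In noCre, where the rule allowed up to 9 tags, 232 members (64.6%) had none, against 59.8% of the pool, and no member had more than 5. The members together took 182 of 6478 noCre tags, or 2.81%, within the range of their share in the other libraries outside opto at 30 min. Members are not all separate: 134 of them (37.3%) had nearly the same counts as another member (a summed difference over the 16 libraries of at most 3% of the tags of both), in 59 sets of up to 4, against 36.1% of the pool. Among these, 29 members in 13 sets had identical counts in all 19 libraries. With each such near-identical set counted once the median log2 fold change was -0.98 at 30 min and 0.06 at 5 min.

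The same rule turned round, for transcripts higher in opto at 30 min, gave 121 transcripts, which took 1.89% ± 0.180 of the tags in opto and 1.07% ± 0.123 in control at 30 min (SD, n = 4 each). At 5 min they took 1.19% ± 0.0797 in opto and 1.28% ± 0.0922 in control (SD, n = 4 each), a ratio of 0.933, with opto lower in 4 of 4 pairs. Their median log2 fold change at 5 min was -0.03, against 0.07 for the 359 members. Each set thus had a 5 min median on the other side of 0 from its 30 min one. The median of the 121 transcripts was above 0 without opto 5 min replicate 1 (0.0074) or without opto 5 min replicate 3 (0.03). At 5 min 11 of the 121 (9.09%, background 0.86%) were lower in opto at an unadjusted p under 0.05 in edgeR. By the same limit 1 (0.826%, background 1.03%) was higher. Every opto library lay below every control in 10 (8.26%, background 1.4%) and above every control in 0 (background 0.786%). The 5 min ratio was at most 2/3 in 19 (15.7%, pool 5.37%) and at least 3/2 in 10 (8.26%, pool 6.37%). After adjustment edgeR called 0 of them at 0.05 (background 0%). Of the 121, 40 had nearly the same counts as another. The difference between the sets was not tested. In the 5 min controls the share of the 121 transcripts was highest in the shallow replicate 2, at 1.42%. In that library the share of the 359 members was lowest.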

How the data were processed

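FMRP CLIP tags were analysed in 19 libraries from mouse CA1. The deposited values are counts of tags per Ensembl transcript, a file for each library, with no normalization per the file headers. The smallest value in each file is 1, so an unlisted transcript was taken as 0. The submitters' processing notes name cutadapt, STAR and mm10. The annotation, duplicate removal and the assignment of tags to isoforms are not given in the sources used here, and tags shared by isoforms could be repeated between transcripts.

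Shares are tags over all tags of the library, and CPM is the share per 1000000. Transcripts with at least 100 tags over the 16 opto and control libraries, which held 71.5% to 76.8% of each library's tags, went into the fit, made in R 4.3.3 with edgeR 4.0.16. The fit used TMM scaling (factors 0.945 to 1.07), the quasi-likelihood test and a mean for each of 4 groups, with Benjamini-Hochberg adjustment over all 4072. The default filterByExpr, by group, would have dropped members and is an alternative. The SE is the log2 fold change over the root of F. The biological coefficient of variation was 0.190. DESeq2 1.42.0 was a second test. On simulated counts with the 5 min contrast, over 4072 transcripts, edgeR recovered 53 of 100 changed 2-fold and 83 of 100 changed 3-fold, with 3 false calls. The simulation gave every transcript the same coefficient of 0.190 and drew the changed ones from all 4072. These recoveries are therefore not those of the members, whose median was 166 tags over the 16 libraries. Python 3.11.15, scipy 1.17.1 and matplotlib 3.10.9 made the tables and plots.

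The members and lists were chosen with earlier results of these data known. Transcripts were named by rule: with no table pairing IDs with genes, the 2 members with the most tags and the member with the smallest p in each direction at 5 min. Gene lists and cell type markers need gene names and were not analysed here. No sequence of a member is printed, since no table used here links the IDs to sequences. The limit for near-identical counts was chosen after seeing the data.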

Additional observations from a re-analysis of the deposited data

Results flagged for a closer look

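In 24 groups of 4 libraries (the summed share of the 359 transcripts, that of the 121 transcripts chosen in the opposite direction, and each of the 4 transcripts given by ID), a library standing apart from its group was looked for with Dixon's ratio, the gap to the nearest library over the range, against its 95% critical value for 4 values. The summed share of the 359 transcripts had none in any group. The 121 transcripts had a ratio of 0.8291 in opto at 30 min, where replicate 3 was low at 1.63% against 1.95% to 2.02%, and of 0.862 in control at 5 min, where replicate 2 was high at 1.42% against 1.22% to 1.25%. Opto 30 min replicate 3 is the deepest library of its group and control 5 min replicate 2 the shallowest of its group. Chance gives such a ratio in about 1 group of 20.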

How the results depend on the processing

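At 5 min 0 members, and 0 of all transcripts tested, passed in edgeR or DESeq2 in each of 18 alternatives. The members' median log2 fold change ran from 0.015 to 0.15 over 20 alternatives, and the ratio of summed shares from 0.988 to 1.147 over 14. With the default filterByExpr 206 members were left to test. At 30 min 0 members passed in 14 alternatives, in which 0 to 8 of all 4072 transcripts passed. The summed ratio was 0.416 to 0.486 when leaving out a library. The median log2 fold change was then -1.29 to -0.93, lowest without opto 30 min replicate 3. The number of members was 224 with a limit of 1/2, 232 with 0 noCre tags, 127 with at least 200 tags, and 484 to 661 on 3 pairs. It was 336 when the tags of the left-out run of IDs were taken out of the library totals. For ENSMUST00000164930 the 5 min log2 fold change turned sign with DESeq2 size factors (0.0054), the 5 min libraries alone (0.00096) and depth as a covariate (0.0025), and was -0.16 to 0.25 without single libraries. For ENSMUST00000032891 it turned with the replicate block (0.021) and with thinned counts (0.35), and was -0.17 to 0.069 without single libraries. The causes were not tested. The adjusted p of the 4 transcripts given by ID stayed between 0.140 and 1 in edgeR or DESeq2. Same-numbered opto and control libraries deviated together with correlations of 0.0825 to 0.285 over all 4072 transcripts, over 0.1 in 5 of 8 pairs, and of 0.198 to 0.689 over the 334 transcripts averaging 50 tags or more, so the pairing was not taken as settled. Over all 4072 transcripts 5 of 8 opto libraries correlated best with their own number. Over the 334 transcripts 6 of 8 did, and 8 of 8 pairs had a correlation over 0.1. The replicate block called 0 members at 5 min and 0 at 30 min, against 0 and 8 of all 4072 transcripts. At an unadjusted p under 0.05 in edgeR at 5 min it had 7 lower (1.95%, against 1.38% of all transcripts) and 15 higher members (4.18%, against 1.92%). It gave a 5 min median of 0.074 and a summed 5 min ratio of 1.08. At 30 min depth limits the opto values, where the median member had 9 tags in 4 libraries.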
